A study of Rattus norvegicus with 6 samples.

Results

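The long-chain acyl-CoA synthetases are enzymes encoded in the rat by the genes Acsl1, Acsl3, Acsl4, Acsl5 and Acsl6. All probe sets that the array annotation assigned to one of these genes alone, under its current symbol or an older one such as Facl2, were taken, which gave 9 of 31042 probe sets, for 5 of the 14217 genes named on the array. Of these, 3 belonged to Acsl1, 1 to Acsl3, 1 to Acsl4, 2 to Acsl5 and 2 to Acsl6. RNA came from rat 3Y1 cells, an embryonic fibroblast line that had been stably transfected, and was hybridised to 6 Affymetrix arrays in 3 groups of 2 biological replicates. The first group was 3Y1 cells expressing the cytoplasmic domain of the mucin MUC1 (MUC1-CD) and grown as tumors in female athymic mice after injection under the skin of the hindlimb. The second was the same MUC1-CD cells in culture, and the third was 3Y1 cells carrying the empty vector (Vector) in culture. The sources used here do not give the promoter of the vectors, the age of the mice, the number of cells behind each profiled tumor or whether each line was a single clone. Athymic mice lack mature T cells but keep macrophages, vessels and muscle, so tumor RNA can hold mouse transcripts, and whether the rat probes read them was not tested.

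Acyl-CoA synthetases join long-chain fatty acids to coenzyme A, the step that precedes their use in phospholipids, triglycerides, cholesterol esters, protein acylation or beta-oxidation. The members differ in substrates and in where they sit in the cell. ACSL1 is prominent in adipose tissue, heart and liver, ACSL3 lies on the endoplasmic reticulum and on lipid droplets, and ACSL4 prefers arachidonic acid and supplies the phospholipids whose oxidation drives ferroptosis. ACSL5 is found on mitochondria and the endoplasmic reticulum and is abundant in intestine, and ACSL6 is mainly a brain enzyme. In the GRCr8 assembly the genes lie on chromosomes 16 (Acsl1), 9 (Acsl3), X (Acsl4), 1 (Acsl5) and 10 (Acsl6).

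Signals are MAS5 intensities, which carry no common scale between probe sets, so each probe set is compared only with itself across arrays. A change is the difference between group means of log2(signal + 16), with its standard error (SE) from a limma model over all 6 arrays, on a scale that understates the change of dim probe sets. A probe set was tested where its mean signal over the arrays was at least 61.6, which 6 of the 9 members and 18625 probe sets in all did, and was called changed at a limma adjusted p under 0.05. With 2 arrays a group, the number of arrays limits the precision, and p values rest on the spread between these arrays. The Vector arrays stood apart: the 3′ to 5′ signal ratio of the Gapdh control was 1.11 and 1.14 in tumors, 1.18 and 1.11 in MUC1-CD culture and 11.5 and 17.8 in Vector cells. For actin the ratio was 3.25 and 2.97 in tumors, 3.37 and 3.29 in MUC1-CD culture and 4.15 and 41.7 in Vector cells, so the Vector replicates also differed from each other. The 5S ribosomal RNA signal was 291.5 and 272.6 in tumors, 227.4 and 257.2 in MUC1-CD culture and 1799.6 and 1469.8 in Vector cells. The SD of the difference between replicates was 0.284 log2 units in tumors, 0.257 in MUC1-CD culture and 0.616 in Vector cells. The model pools the spread of the 3 groups, so the Vector arrays also enter the p values of tumors against MUC1-CD culture. The shares of probe sets called in different comparisons depend on this pooling. All 9 fibroblast markers passed the signal filter, with summed signals of 107217.3 and 111485.9 in tumors, 87364.0 and 88763.5 in MUC1-CD culture and 118473.5 and 127487.6 in Vector cells. The rat Muc1 probe set was dim, at 61.3 and 51.7 in tumors, 43.5 and 26.7 in MUC1-CD culture and 92.6 and 83.2 in Vector cells, and does not check the labels, because the sources used here do not say whether it reads the transfected domain.

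The sequence before the annotated start site is shown for Acsl1 and Acsl3, which had the largest falls in tumors, and for Acsl5, whose brighter probe set did not pass the test there. Each is the 250 bases upstream of the start site in RefSeq (GRCr8), 5′ to 3′ on the strand of the gene, and capitals mark any of the motifs searched. The Acsl1 window is chr16:52532393-52532642 on the minus strand, and its start site lies 21718 bases inside the annotated 5′ end of the gene. The Acsl3 window is chr9:87563351-87563600 and the Acsl5 window chr1:264294601-264294850, both on the plus strand and both directly before the annotated 5′ end.
Acsl1: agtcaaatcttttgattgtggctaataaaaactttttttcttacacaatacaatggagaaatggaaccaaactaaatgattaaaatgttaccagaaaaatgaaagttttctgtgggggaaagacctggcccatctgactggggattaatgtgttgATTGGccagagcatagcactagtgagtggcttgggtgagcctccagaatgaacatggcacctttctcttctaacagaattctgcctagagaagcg
Acsl3: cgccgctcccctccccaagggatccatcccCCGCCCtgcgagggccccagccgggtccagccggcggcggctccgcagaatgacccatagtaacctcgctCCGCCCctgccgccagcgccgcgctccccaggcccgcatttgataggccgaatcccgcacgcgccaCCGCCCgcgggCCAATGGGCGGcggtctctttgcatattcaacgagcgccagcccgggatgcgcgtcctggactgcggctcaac
Acsl5: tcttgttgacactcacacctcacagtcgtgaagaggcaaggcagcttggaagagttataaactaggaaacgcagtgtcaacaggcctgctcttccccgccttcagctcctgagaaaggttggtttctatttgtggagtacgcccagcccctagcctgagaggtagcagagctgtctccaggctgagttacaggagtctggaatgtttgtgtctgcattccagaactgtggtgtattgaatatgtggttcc

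The motifs, searched on both strands, were the sterol element TCACNCCAC bound by SREBP, the PPAR repeat (AGGTCA, then N, then AGGTCA), the E-box CACGTG, the CCAAT box (CCAAT) and the GC box (GGGCGG). The sterol element was not found in the windows of the 5 genes, and it was held by 0.974% of 33469 rat promoters of the same length. The PPAR repeat (0.0508% of promoters) and the E-box (5.59%) were not found in them either. Acsl1 held 1 CCAAT box on the reverse strand at -95 to -91, counted from the start site, a motif present in 34.0% of promoters. Acsl3 held a CCAAT box at -73 to -69 with a GC box directly after it at -68 to -63, and 3 further GC boxes on the reverse strand, and 30.5% of promoters held at least 1 GC box. Acsl4 held 2 GC boxes on the reverse strand that overlap each other. Acsl6 held 1, in a window whose start site lies 11493 bases inside the annotated gene, while the Acsl5 window held none of the motifs. A match describes the letters of the window only.

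Growth in the animal was addressed by setting tumors against the same MUC1-CD cells in culture. Acsl1, Acsl3 and Acsl4 fell in tumors, as did the dimmer probe set of Acsl5, while its brighter probe set did not pass the test. Of the 6 tested probe sets 5 fell and 0 rose, beside 7.31% of all tested probe sets that were called lower and 8.54% that were called higher. The median change of the 6 was -1.29, against 0.05 over all tested probe sets. The tumor and culture arrays did not overlap for any of the 6, which also held for 72.5% of all tested probe sets.

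Acsl1, the isoform of adipose tissue and liver, had a brighter probe set, 1370939_at, that read 118.5 and 145.6 in tumors, against 667.8 and 649 in MUC1-CD culture. Both tumor arrays were far below both culture arrays, at a mean signal 4.99-fold lower. The probe set fell by 2.19 on the log2 scale (SE 0.16, limma adjusted p = 0.000448). The dimmer tested probe set of Acsl1, 1388153_at, read 37.4 and 62.3 in tumors, against 321.3 and 334.3 in culture. It too was low on both tumor arrays, and it fell by 2.41 (SE 0.24, limma adjusted p = 0.00157). On the tumor arrays this probe set lay near or below the signal filter, a range where the log2 scale used understates a change.

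Acsl3, the isoform that feeds lipid droplets and phospholipid synthesis, read 1355.3 and 1142.5 in tumors, against 4574.1 and 4500 in culture (probe set 1368177_at). The culture arrays were nearly equal, and both tumor arrays lay well under them. Acsl3 fell by 1.85 on the log2 scale (SE 0.12, limma adjusted p = 0.000306), a mean signal 3.63-fold lower.

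Acsl4, the arachidonate-preferring isoform, read 4707.6 and 5420.9 in tumors, against 8114 and 7692.9 in culture (probe set 1387101_at). Both tumor arrays were lower, and it fell by 0.64 (SE 0.10, limma adjusted p = 0.00915), a mean signal 1.56-fold lower. The arrays did not overlap, and the call held in 12 of 15 alternative settings. It was lost when tumor replicate 1 (change -0.54) or either of the MUC1-CD culture arrays was left out. With tumor replicate 2 left out it held, at a change of -0.745.

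Acsl5, the isoform of mitochondria and intestine, passed the test on the dimmer of its 2 probe sets only. The brighter, 1386926_at, read 2830.1 and 2835.9 in tumors, against 3039.2 and 2880.9 in culture. The change was -0.06 (95% interval -0.33 to 0.20, limma adjusted p = 0.753), and it was 0.0095 after quantile normalization. The dimmer, 1397375_at, read 903.6 and 1020.8 in tumors, against 1588.9 and 1589.2 in culture. Here both tumor arrays were lower, and the probe set fell by 0.72 (SE 0.19, limma adjusted p = 0.0496). That p lay next to the threshold, and the call held in 7 of 15 alternative settings, with adjusted p up to 0.286. The within-array difference of both Acsl5 probe sets changed by 0.65 (SE 0.28) between tumors and culture and did not pass the test over 2832 genes with 2 tested probe sets (limma adjusted p = 0.405), so unequal change of the probe sets was not shown.

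**Figure D1:**
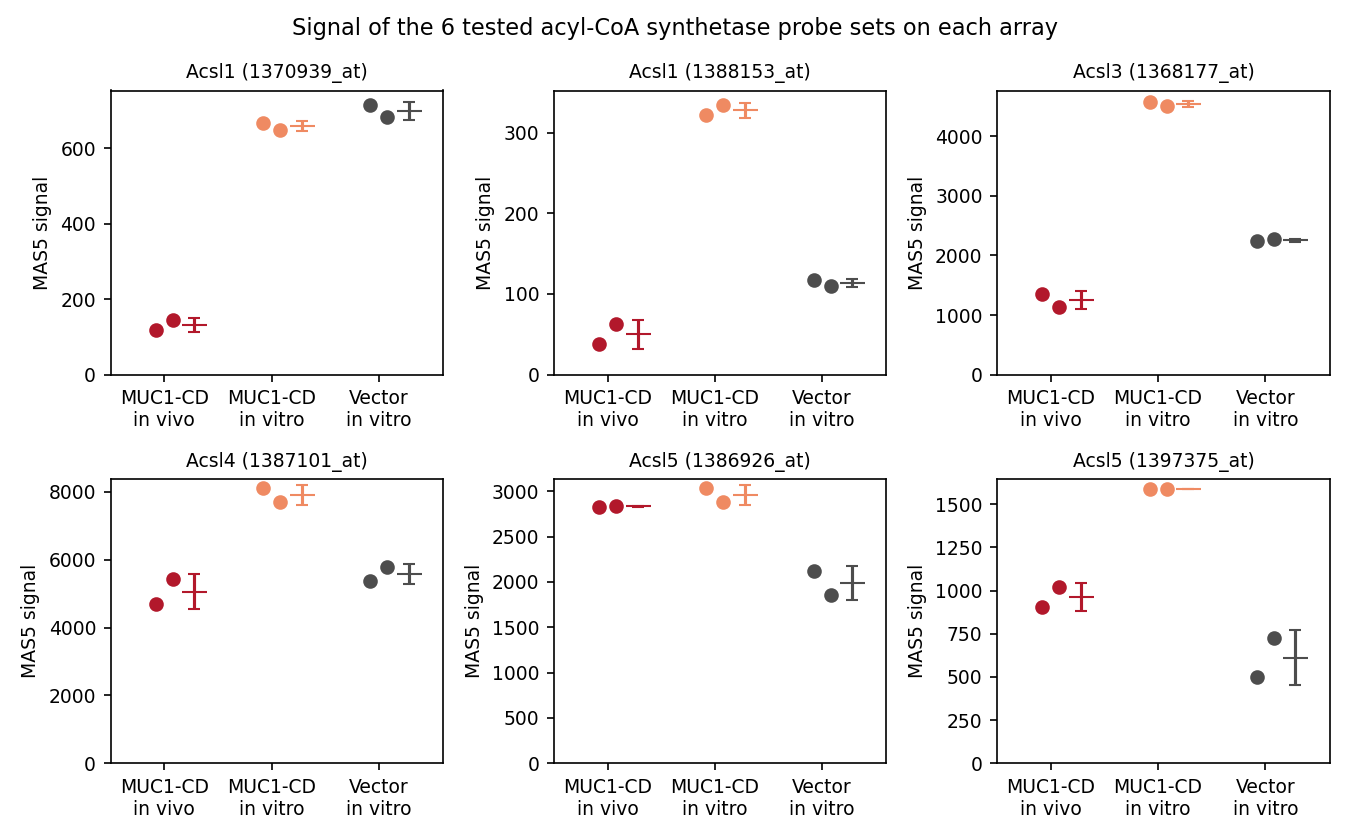
MAS5 signal of the 6 tested probe sets (y axis, linear from 0) in MUC1-CD tumors (in vivo), MUC1-CD culture and Vector culture, with a point for each array and, to its right, the mean with SD of 2 arrays. Acsl3 had its lowest signals in tumors (1355.3 and 1142.5) and its highest in MUC1-CD culture (4574.1 and 4500), while Acsl1 1370939_at was low in tumors only.

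Marker genes of host cell types moved in the same comparison. Of 9 tested skeletal muscle markers 8 rose and 0 fell. The summed signal of 13 markers on the array was 12495.0 and 13280.0 in tumors, against 3090.4 and 3156.2 in culture. Most of the culture sum was Myh1, at 2805.7 and 2625.8. Of 11 tested macrophage markers 8 rose and 1 fell, with a sum over 16 markers of 4714.2 and 4794.5 in tumors, against 663.7 and 687.8 in culture. For endothelium 3 of 4 tested markers rose, with sums over 11 markers of 1305.6 and 1481.6 in tumors, against 573.7 and 592.7 in culture. For erythroid cells 1 of 2 tested markers rose, with sums over 6 markers of 3451.8 and 3552.5 in tumors, against 98.4 and 142.7 in culture. Pericyte markers had 0 of 3 tested members called, with sums over 8 markers of 2228.1 and 2459.6 in tumors, against 1681.4 and 1805.0 in culture. Of 3 tested adipocyte markers 1 rose, with sums over 10 markers of 1362.7 and 1388.5 in tumors, against 703.6 and 740.7 in culture. The defining adipocyte genes Adipoq, Plin1, Cidec and Lep were at or near background on every array, with Adipoq at 24.6 and 11.7 in tumors, against 30.3 and 3.3 in culture. Some other adipocyte markers had higher signals in tumors. Lpl, which macrophages and muscle also express, read 74.6 and 119.6 in tumors, against 4.0 and 10.4 in culture. Pck1 read 56.8 and 51.3 in tumors, against 14.6 and 0.9 in culture, and Cfd read 522.0 and 580.3, against 219.9 and 208.2. Lpl and Pck1 were below the signal filter and were not tested. The part of these cells in the lower Acsl signals was not tested. In bulk RNA, fewer cells that express a gene and less RNA of it per cell cannot be told apart. Tumor RNA was also frozen, homogenized and put through columns, which cultured cells were not, so an effect of growth in the mouse and one of the preparation cannot be told apart.

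MUC1-CD cells were also set against Vector cells, both in culture. Only the Vector arrays had high 3′ to 5′ ratios of the Gapdh control (11.5 and 17.8). In every comparison with Vector cells, gene lists included, an effect of the domain, the line or RNA quality cannot be told apart. Acsl3, Acsl4 and both probe sets of Acsl5 rose in MUC1-CD cells, as did the dimmer tested probe set of Acsl1, while the brighter Acsl1 probe set did not pass the test. Of the 6 tested probe sets 5 rose and 0 fell, in a comparison where 45.8% of all tested probe sets were called, 25% higher and 20.7% lower. The median change of the 6 was 0.79, against 0.07 over all tested probe sets. The arrays of both groups did not overlap for any of the 6, as for 73.1% of all tested probe sets. Because so much of the array was called, a single call among the members says little by itself. This comparison also uses the same MUC1-CD culture arrays as the one with tumors, with opposite sign. A high value on those arrays gives both a fall in tumors and a rise here, so the results are not independent.

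Acsl3 read 4574.1 and 4500 in MUC1-CD culture, against 2238.4 and 2269.1 in Vector cells. Both MUC1-CD arrays were close to each other, as were both Vector arrays, and Acsl3 rose by 1.00 on the log2 scale (SE 0.12, limma adjusted p = 0.000883), a mean signal 2.01-fold higher. Acsl4 read 8114 and 7692.9 in MUC1-CD culture, against 5371.6 and 5792.5 in Vector cells. It rose by 0.50 (SE 0.10, limma adjusted p = 0.00802), or 1.42-fold, a call lost without MUC1-CD culture replicate 1 or 2 (limma adjusted p = 0.0759 and 0.0533). After division of each array by its median, which moved the median of all tested probe sets from 0.07 to -0.25, the change of Acsl4 was 0.18 (limma adjusted p = 0.268). Relative to the median of all probe sets it was 0.43 under the deposited scaling and 0.42 after that division.

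For Acsl5, 1386926_at read 3039.2 and 2880.9 in MUC1-CD culture, against 2123.1 and 1856.4 in Vector cells, and rose by 0.57 (SE 0.11, limma adjusted p = 0.00662). Its change was 0.25 (limma adjusted p = 0.135) after division by the median, and 0.50 relative to the median of all probe sets under either scaling. Without MUC1-CD culture replicate 1 or 2 its adjusted p was 0.0693 or 0.0511. The dimmer 1397375_at read 1588.9 and 1589.2 in MUC1-CD culture, against 498.3 and 722.5 in Vector cells, whose arrays were apart from each other. It rose by 1.38 (SE 0.19, limma adjusted p = 0.00162), a mean signal 2.60-fold higher.

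Acsl1 depended on the probe set. The brighter 1370939_at read 667.8 and 649 in MUC1-CD culture, against 716.3 and 683.2 in Vector cells, a change of -0.09 (95% interval -0.47 to 0.30, limma adjusted p = 0.693). In contrast, 1388153_at read 321.3 and 334.3 in MUC1-CD culture, against 116.8 and 109.9 in Vector cells. It rose by 1.41 (SE 0.24, limma adjusted p = 0.004), a mean signal 2.89-fold higher. Within each array, the ratio of the brighter to the dimmer probe set was 2.08 and 1.94 in MUC1-CD culture and 6.13 and 6.22 in Vector cells. The within-array difference changed by -1.50 (SE 0.22, limma adjusted p = 0.00607), among 29.5% of 2832 genes whose probe sets were called unequal in this comparison. For Acsl5 the same ratio was 1.91 and 1.81 in MUC1-CD culture and 4.26 and 2.57 in Vector cells, a change of -0.81 that did not pass (SE 0.28, limma adjusted p = 0.0748).

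In tumors the ratio was 3.17 and 2.34 for Acsl1 and 3.13 and 2.78 for Acsl5. Between tumors and MUC1-CD culture, the Acsl1 difference changed by 0.22 and did not pass (SE 0.22, limma adjusted p = 0.753), and 0.953% of 2832 genes were called unequal there. Between tumors and Vector cells it changed by -1.28 (SE 0.22, limma adjusted p = 0.00558), beside 40.5% of genes called unequal, and the Acsl5 difference changed by -0.15 (SE 0.28, limma adjusted p = 0.686). The Vector arrays, which had the high 3′ to 5′ ratios of Gapdh, also had the highest Acsl1 ratios. The positions of the probes along the transcripts were not used here, and a difference of the Vector line and one of its RNA quality cannot be told apart.

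**Figure D2:**
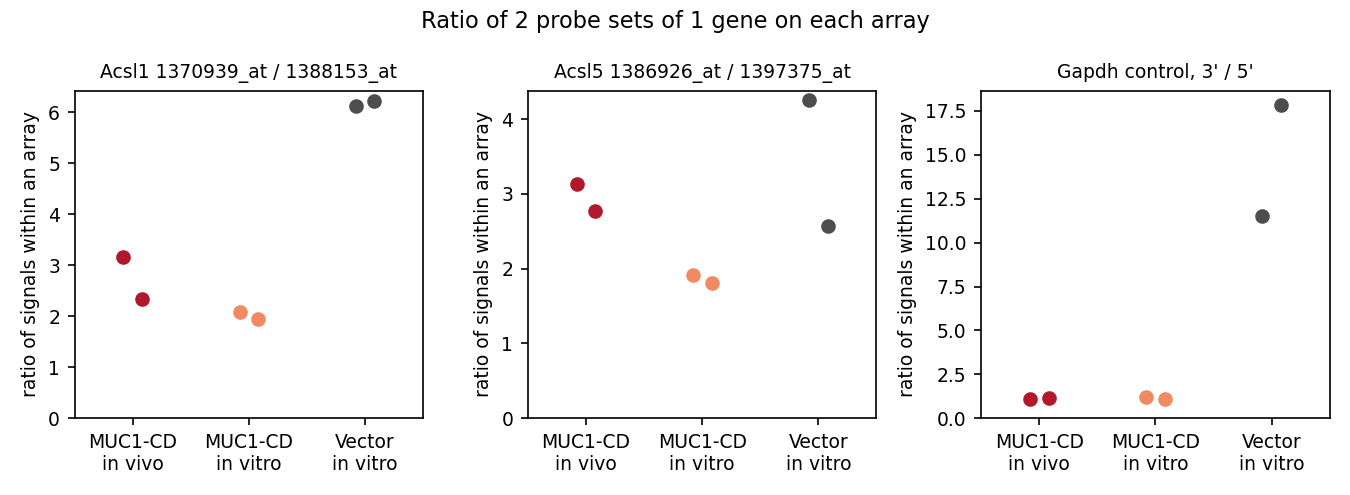
Ratio of the brighter to the dimmer tested probe set within each array for Acsl1 and Acsl5, and the 3′ to 5′ ratio of the Gapdh control (y axes, linear from 0), in MUC1-CD tumors (in vivo), MUC1-CD culture and Vector culture, with a point for each array. The Acsl1 ratio was 6.13 and 6.22 on the Vector arrays, and the Gapdh ratio was 11.5 and 17.8 on the same arrays.

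Tumors were also compared directly with Vector cells, a comparison that shares arrays with both others, so it adds no independent evidence. In tumors Acsl1 and Acsl3 lay below Vector cells, Acsl5 lay above them under the deposited scaling (neither of its probe sets passed after division by the median), and Acsl4 did not pass the test. Of the 6 tested probe sets 2 rose and 3 fell, where 51.5% of all tested probe sets were called, 29.1% higher and 22.4% lower. The median change was -0.50, against 0.12 over all tested probe sets. The arrays of both groups did not overlap for 5 of the 6, as for 75.4% of all tested probe sets. Markers of host cell types moved here too. Of 11 tested macrophage markers 8 rose and 1 fell, and of 9 muscle markers 7 rose and 1 fell. For endothelium 3 of 4, for pericytes 3 of 3 and for erythroid cells 1 of 2 rose. Of 3 adipocyte markers 1 rose and 1 fell. These counts do not read host cells alone, because some markers also differed between the cultures. In MUC1-CD culture against Vector cells, 1 of 11 macrophage markers rose (Cd163) and 1 fell. There 1 of 9 muscle markers rose and 4 fell, and 1 of 3 pericyte (Cspg4) and 1 of 4 endothelial markers rose. Cspg4 read 930.8 and 855.3 in MUC1-CD culture, 582.6 and 661.8 in tumors and 3.9 and 3.3 in Vector cells. The summed macrophage signal was 4714.2 and 4794.5 in tumors, against 670.9 and 911.0 in Vector cells. The muscle sum was 12495.0 and 13280.0 in tumors, against 10343.0 and 10770.8 in Vector cells. Most of that Vector sum was Myh1, the muscle marker that fell, at 9778.9 and 10296.6, against 4121.9 and 3929.3 in tumors. Acta1, which rose, read 5854.5 and 4971.2 in tumors, against 23.6 and 6.1 in Vector cells. The part of these cell types in the Acsl values was not tested.

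Acsl1 1370939_at read 118.5 and 145.6 in tumors, against 716.3 and 683.2 in Vector cells, and fell by 2.28 (SE 0.16, limma adjusted p = 9.48e-05). The dimmer 1388153_at read 37.4 and 62.3 in tumors, against 116.8 and 109.9 in Vector cells. It fell by 1.00 (SE 0.24, limma adjusted p = 0.0139), a call lost without tumor replicate 1, where the change was -0.72 (limma adjusted p = 0.0781). Acsl3 read 1355.3 and 1142.5 in tumors, against 2238.4 and 2269.1 in Vector cells. It fell by 0.85 (SE 0.12, limma adjusted p = 0.0014), so that its tumor level was under that of both cultures.

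Acsl4 read 4707.6 and 5420.9 in tumors, against 5371.6 and 5792.5 in Vector cells, and the arrays overlapped. The change was -0.14 (95% interval -0.39 to 0.10, limma adjusted p = 0.283), and it was -0.74 (limma adjusted p = 0.00184) after division of each array by its median. That division moved the median of all tested probe sets from 0.12 to -0.46, and relative to this median Acsl4 was at -0.26 under the deposited scaling and -0.28 after it. Acsl5 1386926_at read 2830.1 and 2835.9 in tumors, against 2123.1 and 1856.4 in Vector cells. It rose by 0.51 (SE 0.11, limma adjusted p = 0.00906), but was at -0.08 after division by the median, and at 0.39 or 0.38 relative to the median of all probe sets. Without tumor replicate 1 or 2 its adjusted p was 0.0684 or 0.0678. Acsl5 1397375_at read 903.6 and 1020.8 in tumors, against 498.3 and 722.5 in Vector cells. It rose by 0.66 (SE 0.19, limma adjusted p = 0.0258), a call that held in 9 of 15 alternatives. After division by the median its change was 0.08 (limma adjusted p = 0.751), and relative to the median of all probe sets it was 0.55 under the deposited scaling and 0.54 after that division.

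**Figure D3:**
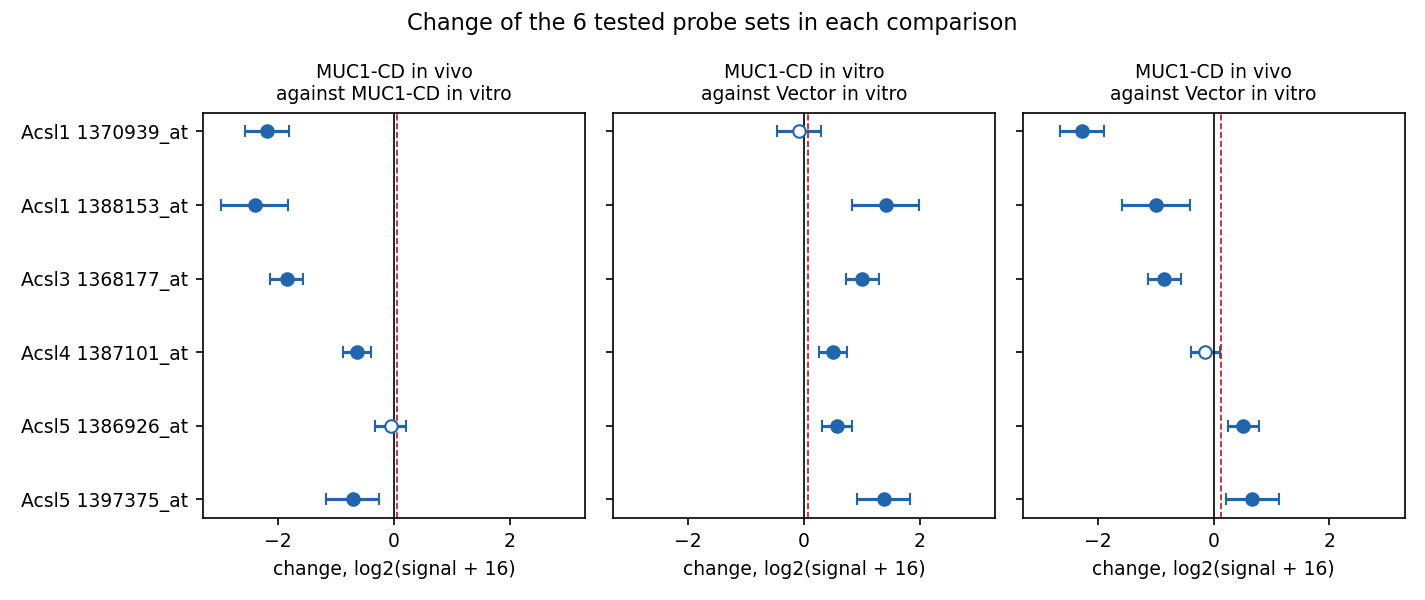
Change of the 6 tested probe sets on the log2(signal + 16) scale (x axis) in tumors against MUC1-CD culture, MUC1-CD culture against Vector culture, and tumors against Vector culture, with 95% intervals, filled where the limma adjusted p is under 0.05, and a dashed line at the median of all tested probe sets. In the comparison of tumors with MUC1-CD culture 5 of 6 points are filled and negative. In that of MUC1-CD culture with Vector 5 of 6 are filled and positive. Both use the same MUC1-CD culture arrays, with opposite sign.

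The order of levels is given here for each member, and whether it differed between members was not tested. Acsl3 was lowest in tumors, intermediate in Vector cells and highest in MUC1-CD culture, and each neighbouring pair passed the test. Acsl4 was highest in MUC1-CD culture, and tumors and Vector cells were not told apart under the deposited scaling. The brighter Acsl1 probe set was lowest in tumors, and both cultures were not told apart, whereas the dimmer Acsl1 probe set had the order of Acsl3. Under the same scaling the brighter Acsl5 probe set was lowest in Vector cells, with tumors and MUC1-CD culture not told apart. The dimmer ran from Vector cells through tumors to MUC1-CD culture, an order that rests on weak calls. That of tumors against MUC1-CD culture lay next to the threshold (limma adjusted p = 0.0496). That of tumors against Vector cells was lost after division by the median (change 0.08). Unequal change of the Acsl5 probe sets was not shown.

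The other 3 probe sets were below the signal filter and were not tested. Acsl6, the brain isoform, read 18 and 16.9 in tumors, 7 and 5.7 in MUC1-CD culture and 5.4 and 4.4 in Vector cells on 1368182_at. On 1395769_at it read 1.1 and 0.5 in tumors, 6.3 and 5.5 in MUC1-CD culture and 2.4 and 0.5 in Vector cells, so both Acsl6 probe sets were dim in every group and did not share an order. A further Acsl1 probe set, 1382887_at, read 29.4 and 29.8 in tumors, 2.5 and 30.3 in MUC1-CD culture and 31.3 and 13.3 in Vector cells, with arrays of 1 group as far apart as the groups. With no filter, none of the 3 passed the test in any comparison, at limma adjusted p = 0.0572 to 0.868.

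Genes that act before or after acyl-CoA synthesis were counted by list, each gene by its brightest tested probe set, beside all 10037 tested genes. In tumors against MUC1-CD culture 9.82% of all genes rose and 8.97% fell, with a median change of 0.03. Among genes of fatty acid synthesis, elongation and desaturation, 10 of 16 tested members fell and 0 rose, with a median of -1.08. Fasn, the fatty acid synthase, read 1618.6 and 1441.2 in tumors, against 4301.3 and 4398.2 in culture, and fell by 1.50 (SE 0.11, limma adjusted p = 0.00038). The elongase gene Elovl6 fell by 1.82 and the desaturase genes Fads1 and Scd2 fell by 1.42 and 1.30. The number that fell was 6 without MUC1-CD culture replicate 1 and 15 without Vector replicate 1 or without Vector replicate 2.

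Among SREBP factors and sterol-regulated targets, 7 of 12 tested members fell and 0 rose, with a median of -1.16. Idi1, an isomerase of the sterol pathway, read 1776.1 and 1817.1 in tumors, against 6796.4 and 6520.3 in culture, and fell by 1.88 (SE 0.12, limma adjusted p = 0.000323). Cyp51, Sqle and the SREBP retention factor gene Insig1 fell by 1.54, 1.48 and 1.35. The number that fell was lower without tumor replicate 2 and without MUC1-CD culture replicate 1 or 2. In other alternative settings it was higher, and in some settings members of this list also rose.

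The other lists had fewer calls in tumors. Of 6 other acyl-CoA synthetases 1 fell and 0 rose, with a median of -0.53. The member that fell was Acss2, which activates acetate, at 510.2 and 494.6 in tumors, against 1983.9 and 2009 in culture (it fell by 1.96, SE 0.16, limma adjusted p = 0.000643). Of 12 acyl-CoA thioesterases and binding proteins 1 fell, the acyl-CoA binding protein gene Dbi (by 0.92). Of 17 glycerolipid and phospholipid acyltransferases and related enzymes 2 fell, Soat1 and Lpin1. Mitochondrial oxidation had 2 of 21 members that fell, Hadhb and Decr1, and peroxisomal oxidation 1 of 6, Pecr. No gene rose in these 5 lists. With any one of the tumor and MUC1-CD culture arrays left out, 0 genes were called in the thioesterase, mitochondrial and peroxisomal lists, and without Vector replicate 1 or 2, 4, 6 and 3 were called, with 1 rise among the thioesterases and 1 in the peroxisomal list. The acyltransferase count was 1 without tumor replicate 1 or MUC1-CD culture replicate 2 and 6 without Vector replicate 1 or 2, and other synthetases had 2 rises and 3 falls without Vector replicate 1 or 2.

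Of 9 PPAR receptors and targets 2 rose and 2 fell in tumors. Pparg, the adipogenic receptor, fell by 1.34 and Pdk4 fell by 1.07, while Angptl4 and Ppargc1b rose by 1.11 and 1.38. None of these 9 genes was called without tumor replicate 1 or 2, or without MUC1-CD culture replicate 1 or 2. Of 12 ferroptosis genes, chosen because ACSL4 acts there, 3 rose and 1 fell. Alox12, a lipoxygenase gene, rose by 2.61, Slc3a2 by 0.80 and Sat1 by 0.47, and the transferrin receptor gene Tfrc fell by 1.23. In that list 0 rose and 1 fell without tumor replicate 1 or 2, 1 rose and 1 fell without MUC1-CD culture replicate 1 or 2, and 4 rose and 5 fell without Vector replicate 1 or 2.

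In MUC1-CD culture against Vector cells, 21.2% of all genes rose and 24.9% fell, with a median of -0.04. Of the 16 genes of fatty acid synthesis 10 rose and 2 fell, with a median of 0.49, and 6 rose without MUC1-CD culture replicate 1 or without replicate 2. Fads1 read 6995.3 and 7019.3 in MUC1-CD culture, against 2529.9 and 2879.3 in Vector cells, and rose by 1.37 (SE 0.10, limma adjusted p = 0.000175). Elovl6, Elovl1 and Fads2 rose by 1.47, 0.97 and 1.84. Of the 12 sterol-regulated genes 6 rose and 1 fell, with a median of 0.46, and the rises included Cyp51 (2.50), Idi1 (2.09), Insig1 (1.42) and Fdft1 (1.32).

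Glycerolipid and phospholipid acyltransferases had 9 of 17 members that rose and 1 that fell, with a median of 0.80. Among them Mboat1 rose by 1.85, Mboat7, which acylates phosphatidylinositol, by 1.26, Lpcat3 by 3.12 and Lpcat1 by 1.01. Lpcat3 read 2401.9 and 2510 in MUC1-CD culture, against 504.6 and 139.2 in Vector cells, whose arrays were far apart. Of 9 PPAR receptors and targets 6 rose and 0 fell, with a median of 1.05, among them the lipid droplet gene Plin2 (1.05), the fatty acid carrier genes Fabp4 (1.96) and Fabp3 (2.87), and Pparg (1.82).

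In the same comparison 1 of 21 genes of mitochondrial oxidation rose, Acadl (0.94), and 7 fell, among them Decr1 (-0.79), Hadh (-1.30) and Acaa2 (-0.69). Of 6 peroxisomal genes 1 rose and 2 fell. Of 12 thioesterases and binding proteins 3 rose and 3 fell, the largest of the named changes being that of the mitochondrial thioesterase gene Acot2 (-2.64). Of 6 other acyl-CoA synthetases Acss2 rose by 1.25 and the fatty acid transporter gene Slc27a1 fell by 1.31. Of 12 ferroptosis genes 1 rose and 3 fell, with Ncoa4, Hmox1 and Slc3a2 at -1.66, -1.52 and -1.04 and Aifm2 at 0.61. Without MUC1-CD culture replicate 2, the calls were 4 rises and 1 fall among acyltransferases, 1 rise and 2 falls in mitochondrial oxidation, 0 rises and 1 fall among thioesterases and 0 in the peroxisomal list. Without MUC1-CD culture replicate 1, mitochondrial oxidation had 1 rise and 3 falls, thioesterases 0 rises and 2 falls, and the peroxisomal list 0 calls, as it also had without tumor replicate 1 or 2. Without Vector replicate 1 there were 4 rises and 8 falls in mitochondrial oxidation, 5 and 3 among thioesterases, 1 and 5 in the peroxisomal list and 2 and 2 among other synthetases. Without Vector replicate 2 there were 2 rises and 10 falls in mitochondrial oxidation, 4 and 4 among thioesterases, 2 and 3 in the peroxisomal list and 4 and 3 in the ferroptosis list.

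**Figure D4:**
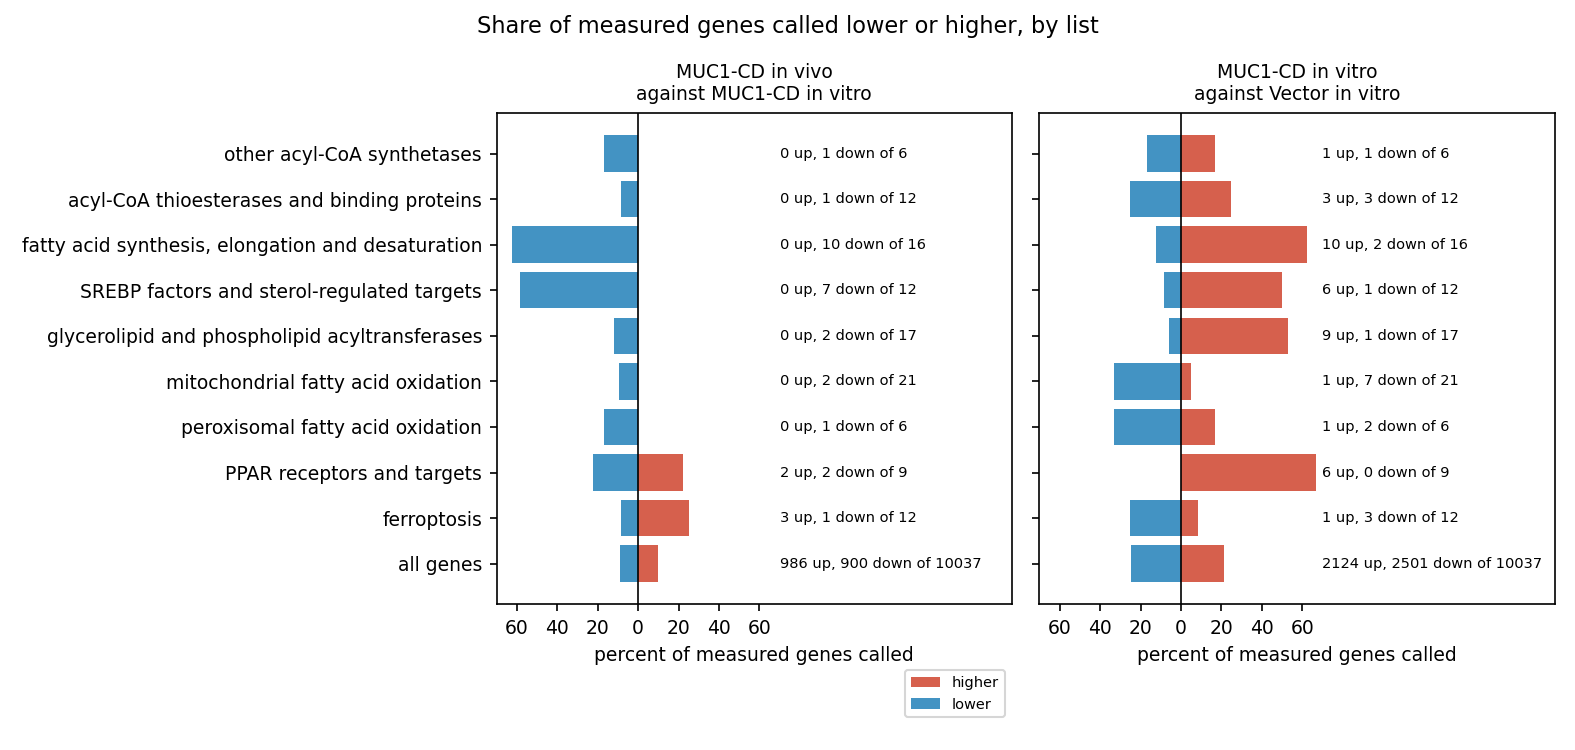
Share of tested genes (x axis, percent) called lower (left of 0) or higher (right of 0) in tumors against MUC1-CD culture and in MUC1-CD culture against Vector culture, for 9 lists and for all genes, with the counts written beside the bars. Fatty acid synthesis had 10 of 16 genes lower in tumors and 10 of 16 higher in MUC1-CD culture. Both comparisons use the same MUC1-CD culture arrays, with opposite sign, so they are not independent.

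In tumors against Vector cells, 24.8% of all genes rose and 26.6% fell. Fatty acid synthesis had 7 of 16 members that fell and 1 that rose there, and the sterol-regulated list had 3 that fell and 1 that rose of 12. Fasn read 1618.6 and 1441.2 in tumors, against 5334.8 and 5025.3 in Vector cells, and fell by 1.75 (SE 0.11, limma adjusted p = 5.62e-05). Of 6 other acyl-CoA synthetases 3 fell and 0 rose, namely Acss2 (-0.70), Acsf2 (-1.90) and Acsf3 (-0.54). PPAR receptors and targets had 6 of 9 members that rose and 0 that fell. The glycerolipid acyltransferase list had 7 of 17 that rose and 2 that fell.

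The genes whose profiles over the 6 arrays lay nearest to each member were found among 10036 genes. Nearness was the root mean square difference of log2(signal + 16) after each profile was centred on its mean. Each member was represented by its brightest tested probe set, 1370939_at for Acsl1 and 1386926_at for Acsl5. The dimmer tested probe sets of Acsl1 and Acsl5, which each passed the test in a comparison where the brighter did not, were not used. For Acsl1, which spanned 2.45 log2 units, these were Rras2 (0.110), Vldlr (0.127) and Krt15 (0.177). For Acsl3, which spanned 1.99, they were Lrp8 (0.0781), Pmvk (0.113) and Isoc1 (0.124). Lrp8 read 223.1 and 203 in tumors, 787.4 and 805.6 in MUC1-CD culture and 340.8 and 383.1 in Vector cells. Its order of groups is that of Acsl3, which follows from its choice as the nearest profile. For Acsl4, which spanned 0.783, they were Pgs1 (0.0323), Dgcr2 (0.0531) and Pcca (0.0558), and for Acsl5, which spanned 0.706, Rbm27 (0.0412), Spcs2 (0.0491) and Cmtr1 (0.0527). All these profiles share the same 6 arrays and 3 groups, so their nearness describes these samples only.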

How the data were processed

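The deposited intensity values are linear MAS5 signals of probe sets (per the submitters' processing notes), and all 6 arrays had the same 2% trimmed mean. The sources used here do not give the MAS5 version or detection calls. Of 31099 probe sets, 57 controls were set aside. The annotation named a single gene for 20826 probe sets and several for 436, and did not list 9780. Entrez identifiers matched 20758 of the single-gene probe sets to GRCr8 symbols, which were used in place of the annotated ones.

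From these, log2(signal + 16) was computed, probe sets at or above the 40th percentile of mean signal (61.6) were kept, and group was fitted over all 6 arrays with limma 3.58.1 in R 4.3.3 (lmFit, eBayes with trend). P values are 2-sided and Benjamini-Hochberg adjusted over 18625 probe sets (residual degrees of freedom 3, median prior degrees of freedom 3.70). The within-array difference of the 2 brightest probe sets of a gene was fitted likewise, a choice made after seeing the data. Code was tested on simulated data.

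The members, gene lists and tests were chosen with earlier results of these data known. Named genes are all member probe sets, up to 4 called genes per list with the smallest p, and the 3 nearest profiles per member. Same-numbered replicates did not deviate together (correlations -0.0445, -0.0184 and -0.027), so no block was used. Alternatives were pseudocounts of 1 and 64, no filter or the 60th percentile, division by the median, quantile normalization, eBayes without trend, only the 4 arrays compared, the replicate block, and leaving out each array.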

Additional observations from a re-analysis of the deposited data

How the results depend on the processing

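The falls of Acsl1 and Acsl3 in tumors against MUC1-CD culture, the rises of Acsl3, Acsl1 1388153_at and Acsl5 1397375_at in MUC1-CD culture against Vector and the fall of Acsl3 and of Acsl1 1370939_at in tumors against Vector kept their direction and stayed past the threshold in every alternative that tested them. Over all members and comparisons, 237 values kept direction and side of the threshold, 27 lost the call, 1 gained it and 2 changed sign. The brighter Acsl5 probe set changed sign at 0.0095 with quantile normalization in tumors against MUC1-CD culture, and at -0.0837 with division by the median in tumors against Vector. The 60th percentile filter left Acsl1 1388153_at untested. The number of Acsl probe sets called in MUC1-CD culture against Vector was 3 with division by the median, and in tumors against Vector 3 with only the 4 arrays compared. Leaving out 1 array gave 3 to 5 called probe sets in tumors against MUC1-CD culture, 3 to 5 in MUC1-CD culture against Vector and 2 to 5 in tumors against Vector. Where a lone array remained, it was assumed to vary like the other groups. With the replicate block, the counts were 5, 5 and 5, and no member's call changed.

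Over all probe sets, 2952 were called in tumors against MUC1-CD culture, 8144 with only the 4 arrays compared, and 572 to 8097 with 1 array left out. In MUC1-CD culture against Vector 8522 were called, and 4760 or 4391 without MUC1-CD culture replicate 1 or 2. In tumors against Vector 9589 were called, and 5884 or 6031 without tumor replicate 1 or 2. Division by the median moved the higher share among called probe sets to 22.3% (53.9% as deposited), 33.2% (54.7%) and 25.1% (56.5%) in the same order of comparisons. The same alternatives were run on the lists after seeing the data: fatty acid synthesis had 6 to 16 and 6 to 15 called genes in tumors against MUC1-CD culture and in MUC1-CD culture against Vector, and the sterol-regulated list 4 to 10 and 5 to 10. In the same order of comparisons the ranges were 0 to 3 and 0 to 6 for peroxisomal oxidation, 0 to 6 and 3 to 13 for mitochondrial oxidation, 0 to 4 and 1 to 8 for thioesterases and binding proteins, 1 to 7 and 5 to 14 for acyltransferases, 1 to 5 and 2 to 4 for other synthetases, 0 to 6 and 4 to 7 for PPAR genes, and 1 to 9 and 3 to 7 for ferroptosis. The cause of these differences was not tested. Acsl6 and 1 Acsl1 probe set were too dim for a comparison.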
